A study of Arabidopsis thaliana with 22 samples.

Results

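Histone H3.1 and histone H3.3 of Arabidopsis thaliana are encoded by the 8 genes described here, 5 for H3.1 and 3 for H3.3, of 27444 annotated protein-coding genes on chromosomes 1 to 5. The genes were chosen by locus and not by any measured value. The H3.1 genes are AT1G09200, AT3G27360, AT5G10390, AT5G10400 and AT5G65360, and the H3.3 genes are AT4G40030, AT4G40040 and AT5G10980. Every peak of 10 acetylation peak lists that overlapped a gene or the 2 kb on either side of it was collected, which gave 52 different peaks around the H3.1 genes and 48 around the H3.3 genes, of 105488 peaks in all. A peak is a stretch of the genome where the immunoprecipitated fragments exceeded the IgG background, and its summit is the base with the highest coverage.

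Seedlings of the mutant *ein2-5*, which lacks functional EIN2, a membrane protein that ethylene signalling needs, and of the wild type Col-0 were grown in the dark at 24 °C and used when 3 days old. They received 10 ppm ethylene in hydrocarbon-free air, or hydrocarbon-free air without ethylene, for 4 h. Chromatin was immunoprecipitated with antibodies against histone H3 acetylated at lysine 14 (H3K14Ac) or lysine 23 (H3K23Ac) in both genotypes, and at lysine 9 (H3K9Ac) in Col-0 only, and sequenced in 18 ChIP libraries beside 4 IgG libraries. The 4 groups were thus *ein2-5* with ethylene, *ein2-5* in air, Col-0 with ethylene and Col-0 in air, with 2 lists each in *ein2-5* and 3 lists each in Col-0. Where a group had 2 libraries, they had been pooled before peaks were called, and the H3K14Ac lists of Col-0 with ethylene and in air rest on 1 library each, so that each list is a lone value with no replicate error, and no test between treatments, genotypes or classes was run.

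Histone H3 is part of the protein core around which DNA is wrapped. H3.1 is made mainly while DNA is replicated and is placed behind the replication fork, whereas H3.3 is made throughout the cell cycle and replaces H3 in transcribed genes. Acetylation of the H3 tail is generally found over the 5′ part of active genes, so that peaks at these genes describe the chromatin in which the H3 genes themselves lie, and not which H3 variant carries the mark.

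The 2 proteins are nearly the same. All 5 H3.1 genes encode an identical protein of 135 residues after the starting methionine, and so do all 3 H3.3 genes by their coding sequence of that length. AT4G40030 also has a longer annotated coding sequence, of 495 bases, which was not compared. Between the classes 132 of 136 residues are the same, and the differences, counted from the residue after the starting methionine and written with the H3.1 residue before the position and the H3.3 residue after it, are A31T, F41Y, S87H and A90L. The coding sequences are less alike. They share 80.3 to 89.5% of bases between H3.1 genes, 78.6 to 88.8% between H3.3 genes and 74.0 to 80.3% between the classes. The beginning of each coding sequence is shown because it encodes the tail whose lysines the antibodies recognise. The codons of lysines 9, 14 and 23 are in capitals, and coordinates are those of TAIR10 (RefSeq sequence), all on the minus strand. In the H3.3 genes the stretch crosses an intron, which is left out.
AT1G09200 (H3.1, chr1:2972052-2972132): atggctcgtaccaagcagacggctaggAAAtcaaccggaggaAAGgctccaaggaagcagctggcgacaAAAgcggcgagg
AT3G27360 (H3.1, chr3:10129789-10129869): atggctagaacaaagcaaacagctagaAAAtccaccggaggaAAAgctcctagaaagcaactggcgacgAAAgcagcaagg
AT5G10390 (H3.1, chr5:3269395-3269475): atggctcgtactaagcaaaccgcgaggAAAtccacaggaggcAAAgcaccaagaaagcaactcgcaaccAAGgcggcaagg
AT5G10400 (H3.1, chr5:3270808-3270888): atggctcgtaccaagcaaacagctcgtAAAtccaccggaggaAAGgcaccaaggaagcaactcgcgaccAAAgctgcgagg
AT5G65360 (H3.1, chr5:26120429-26120509): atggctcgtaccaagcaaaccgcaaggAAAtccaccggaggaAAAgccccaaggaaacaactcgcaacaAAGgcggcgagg
AT4G40030 (H3.3, chr4:18556255-18556417): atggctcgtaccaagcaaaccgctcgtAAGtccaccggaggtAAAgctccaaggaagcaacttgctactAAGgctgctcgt
AT4G40040 (H3.3, chr4:18558069-18558236): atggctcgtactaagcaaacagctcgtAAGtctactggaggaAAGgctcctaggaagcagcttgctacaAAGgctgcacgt
AT5G10980 (H3.3, chr5:3473011-3473349): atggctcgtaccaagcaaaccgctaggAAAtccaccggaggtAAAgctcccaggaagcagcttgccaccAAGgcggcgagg

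Of these 81 bases, 65 to 72 are the same between H3.1 genes, 65 to 71 between H3.3 genes and 62 to 72 between the classes. Reads of near-identical copies can be counted at the wrong gene, so words of 51 bases, the length of the reads, were looked up in the whole genome. Only AT3G27360 (9 of 783 words) and AT5G10400 (9 of 736 words) held words that occur elsewhere, and those words were shared between these 2 genes. The other 6 genes held none, so that reads could be placed on each H3 gene almost throughout.

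The genes of the classes differ in structure. The H3.1 genes have no intron and span 723 to 833 bp, and the H3.3 genes have 2 to 4 introns and span 1166 to 1797 bp. AT1G09200 lies at chr1:2971571-2972334, AT3G27360 at chr3:10129105-10129937, AT5G10390 at chr5:3268847-3269594, AT5G10400 at chr5:3270172-3270957 and AT5G65360 at chr5:26119859-26120581. Of the H3.3 genes, AT4G40030 lies at chr4:18555532-18557106, AT4G40040 at chr4:18557149-18558945 and AT5G10980 at chr5:3472405-3473570. AT5G10390 and AT5G10400 are neighbours, 578 bp apart, and AT4G40030 and AT4G40040 are neighbours, 43 bp apart, so that peaks between them count for both genes. AT3G27360 overlaps SDH2-1 (AT3G27380, the iron-sulfur subunit of succinate dehydrogenase) by 328 bp on the same strand, and the source of a peak in that stretch cannot be told apart.

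Promoters of plant histone genes often hold the octamer motif CGCGGATC. It was searched on both strands in the 250 bases before each annotated start and was found in 3 of 5 H3.1 genes and in 1 of 3 H3.3 genes, against 0.135% of all 27443 promoters of that length. The E2F motif TTTCCCGC, searched in the same way, was found at none of the 8 genes, against 0.619% of all promoters. The stretches with the octamer are shown, with its letters in capitals, to show where it stands in each gene that holds it.
AT1G09200 (H3.1, chr1:2972335-2972444, minus strand): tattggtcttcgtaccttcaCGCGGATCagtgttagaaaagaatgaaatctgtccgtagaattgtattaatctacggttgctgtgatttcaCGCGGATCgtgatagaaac
AT5G10400 (H3.1, chr5:3271050-3271097, minus strand): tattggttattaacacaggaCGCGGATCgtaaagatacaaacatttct
AT5G65360 (H3.1, chr5:26120680-26120727, minus strand): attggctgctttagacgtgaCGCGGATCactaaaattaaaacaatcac
AT4G40040 (H3.3, chr4:18558946-18558982, minus strand): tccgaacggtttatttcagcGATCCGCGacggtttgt

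AT1G09200 holds the octamer at 2 places. In AT4G40040 the letters stand on the opposite strand, 17 bp before the start, in the short stretch that ends at the gene. No peak of any list covered the annotated start of any of the 8 genes. The share of all protein-coding genes with a peak over the start was not counted, so this is not shown to be particular to them.

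Acetylation peaks were found over the H3.3 genes more often than over the H3.1 genes. Counted over genes and lists, a peak summit lay inside the gene in 15 of 50 H3.1 pairs (30%) and in 24 of 30 H3.3 pairs (80%), against 33.2% of pairs of all protein-coding genes. A peak lay within 2 kb in 34 of 50 H3.1 pairs (68%) and 27 of 30 H3.3 pairs (90%), against 53.4% for all protein-coding genes. The H3.3 share was above the H3.1 share in 9 of the 10 lists and above that of all genes in 10, while the H3.1 share was above that of all genes in 4. The genes are few and the lists share controls, so these counts describe the 8 genes and carry no test. In seedlings, fewer cells with the mark and less of the mark per cell cannot be told apart.

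**Figure D1:**
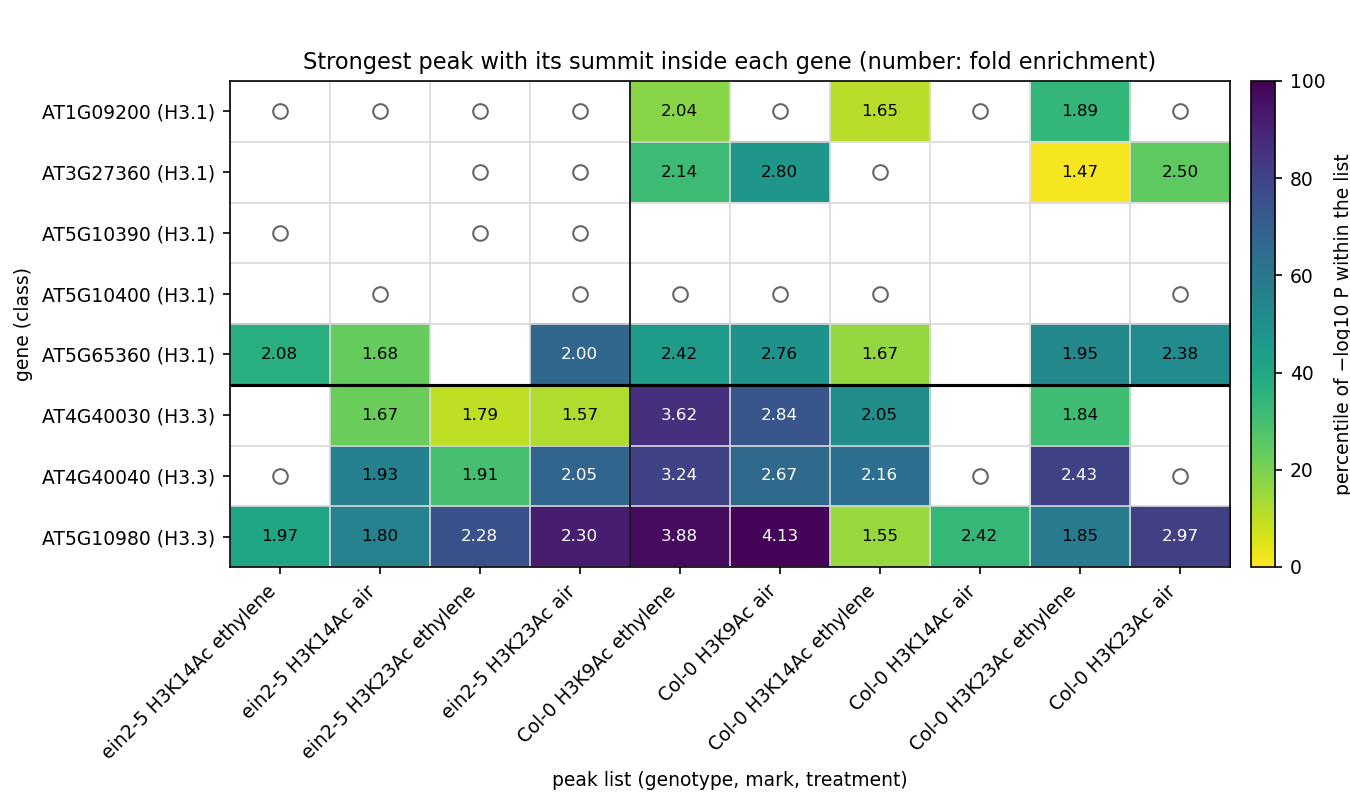
Peaks with the summit inside each H3 gene (rows) in each peak list (columns). Colour gives the percentile of the strongest such peak's −log10 P within its list, the number in the cell gives its fold enrichment over the local background, open circles mark genes with only a peak elsewhere within 2 kb, and blank cells have no peak. AT5G10980 is filled in 10 of 10 lists, and AT5G10390 and AT5G10400 in none.

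Length and introns differ between the classes as well. Among the 390 protein-coding genes without introns in the length range of the H3.1 genes, 8.97 to 32.6% had a summit inside, depending on the list, and among the 4125 genes with introns in the length range of the H3.3 genes, 8.34 to 50.1% did. The H3.3 share was above that of genes of its own length and structure in 10 of 10 lists, and the H3.1 share was above that of its own in 7.

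In *ein2-5*, the H3K14Ac list with ethylene held a summit inside 1 of 5 H3.1 genes and 1 of 3 H3.3 genes, against 27% of all genes, and a peak within 2 kb of 3 and 2 of them, against 46.8% of all genes. The H3K14Ac list in air held a summit inside 1 of 5 H3.1 and 3 of 3 H3.3 genes, against 29.6% of all genes, and a peak within 2 kb of 3 and 3, against 51.2%. The H3.3 genes AT4G40030 and AT4G40040 account for the difference between these lists. For H3K23Ac with ethylene, a summit lay inside 0 of 5 H3.1 and 3 of 3 H3.3 genes, against 35.4% of all genes, and a peak within 2 kb of 3 and 3, against 57.8%. For H3K23Ac in air the genes with a summit inside were 1 of 5 H3.1 and 3 of 3 H3.3, against 37.2% of all genes, and those with a peak within 2 kb were 5 and 3, against 60.9%. AT5G65360 was the H3.1 gene with a summit inside in each *ein2-5* list that had any.

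In Col-0, H3K9Ac with ethylene had a summit inside 3 of 5 H3.1 and 3 of 3 H3.3 genes, against 56.1% of all genes, and a peak within 2 kb of 4 and 3, against 77.3%. H3K9Ac in air had a summit inside 2 of 5 H3.1 and 3 of 3 H3.3 genes, against 36.2% of all genes, and a peak within 2 kb of 4 and 3, against 57.9%. H3K9Ac was the mark for which the H3.3 genes were filled in both treatments. With ethylene, H3K14Ac had a summit inside 2 of 5 H3.1 and 3 of 3 H3.3 genes, against 43.8% of all genes, and a peak within 2 kb of 4 and 3, against 67.3%. In air, H3K14Ac had a summit inside 0 of 5 H3.1 genes and 1 of 3 H3.3 genes, against 10.6% of all genes, and a peak within 2 kb of 1 and 2, against 20.9%. This list is the shortest of all, with 3011 peaks. With ethylene, H3K23Ac had a summit inside 3 of 5 H3.1 and 3 of 3 H3.3 genes, against 39.3% of all genes, and a peak within 2 kb of 3 and 3, against 62.5%. In air, H3K23Ac had a summit inside 2 of 5 H3.1 genes and 1 of 3 H3.3 genes, against 17% of all genes, and a peak within 2 kb of 4 and 2, against 31.5%. It is the list in which the H3.1 share was above the H3.3 share.

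**Figure D2:**
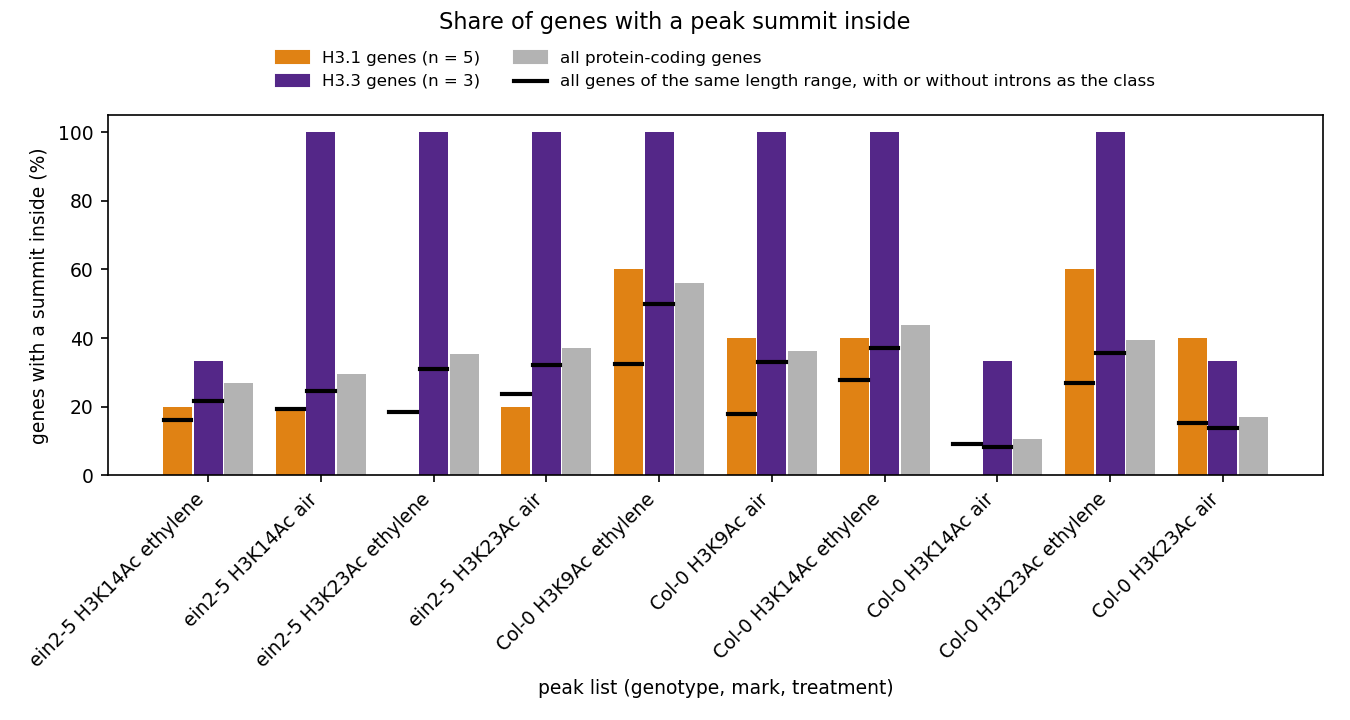
Share of genes with a peak summit inside (vertical axis, %) in each list (horizontal axis) for the 5 H3.1 genes, the 3 H3.3 genes and all protein-coding genes; black lines give the share among all genes in the class's length range that, like the class, lack or have introns. The H3.3 bar stands at 100% in 7 lists and above the grey bar in all 10, and the H3.1 bar is above the grey bar in 4.

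The treatments were then compared, ethylene against air, within each genotype. In *ein2-5*, a summit lay inside the gene in 1 of 10 H3.1 pairs with ethylene and 2 of 10 in air, and in 4 of 6 H3.3 pairs with ethylene and 6 of 6 in air, against 31.2% of pairs of all genes with ethylene and 33.4% in air. In Col-0 the numbers were 8 of 15 H3.1 pairs with ethylene and 4 of 15 in air, and 9 of 9 H3.3 pairs with ethylene and 5 of 9 in air, against 46.4% of pairs of all genes with ethylene and 21.3% in air. As called, no H3 gene in Col-0 had a summit inside in air without one of the same mark with ethylene. In *ein2-5* none had one with ethylene without one in air. The share of all genes called in only 1 treatment was not counted. The pooled shares of all genes have the same order of treatments in each genotype.

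The depth of the IgG control moves with these counts. Peaks were called after the ChIP reads had been scaled down to the control, which held 4333059 tags in *ein2-5* with ethylene, 13683768 in *ein2-5* in air, 10479732 in Col-0 with ethylene and 2438541 in Col-0 in air. In both genotypes the treatment with more filled genes is the one with the deeper control. The lowest fold enrichment of any peak was 1.46 to 1.48 in the *ein2-5* ethylene lists and 1.33 to 1.34 in the *ein2-5* air lists, and 1.35 to 1.38 in the Col-0 ethylene lists and 1.57 in each Col-0 air list. No weaker enrichment was called in these lists, so that a gene without a peak is not shown to lack the mark.

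To set all lists to 1 control depth, the coverage at each summit and its background were multiplied down to the 2438541 tags of the smallest control, and a peak was retained where its Poisson P was still no larger than 0.01. Summits inside the gene were then left in 7 of 50 H3.1 pairs and 16 of 30 H3.3 pairs, against 22.9% of pairs of all genes. In *ein2-5* this left 1 of 10 H3.1 pairs with ethylene and 0 of 10 in air, and 3 of 6 H3.3 pairs with ethylene and 1 of 6 in air, against 26.4% of all pairs with ethylene and 9.79% in air. In Col-0 it left 2 of 15 H3.1 pairs with ethylene and 4 of 15 in air, and 7 of 9 H3.3 pairs with ethylene and 5 of 9 in air, against 31% of all pairs with ethylene and 21.3% in air. The order of ethylene and air therefore turned round in *ein2-5* for both classes and in Col-0 for H3.1, but not in Col-0 for H3.3. At this depth, 2 H3.1 and 1 H3.3 pairs of gene and mark in Col-0 had a summit inside in air but not with ethylene. In *ein2-5*, 1 H3.1 and 2 H3.3 pairs had one with ethylene but not in air. The scaling leaves the Col-0 air lists as they were called. The order of the classes stayed, with 14% of H3.1 pairs and 53.3% of H3.3 pairs.

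**Figure D3:**
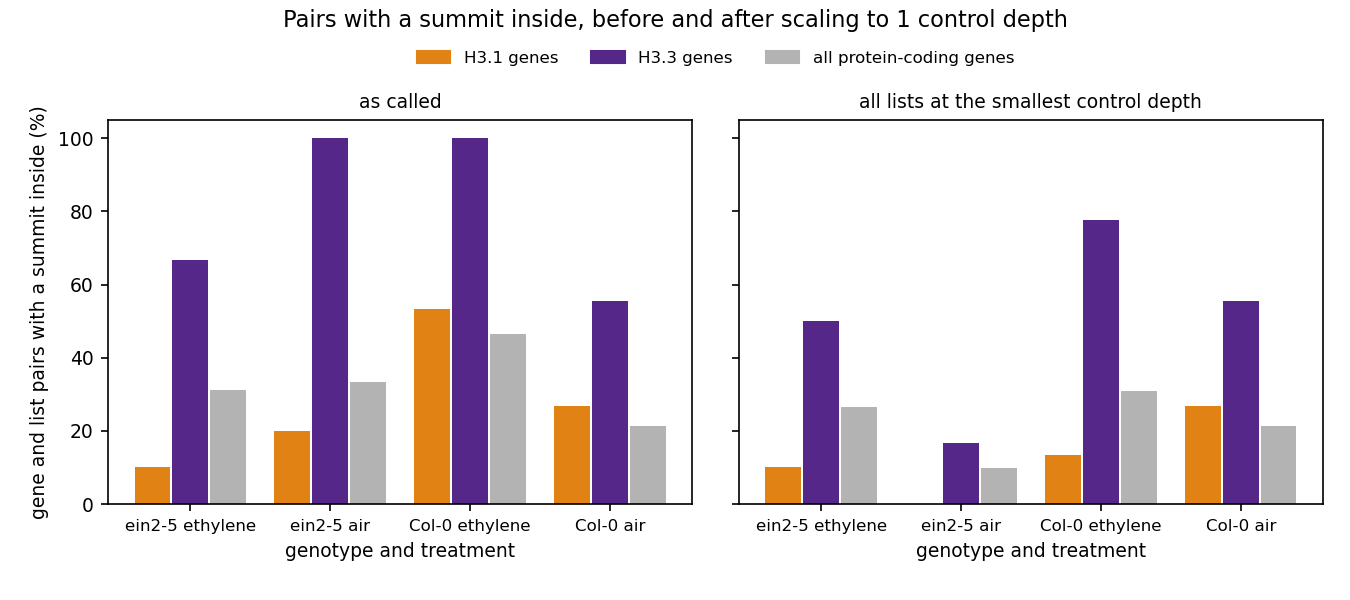
Pairs of gene and list with a summit inside the gene (vertical axis, %) for H3.1, H3.3 and all protein-coding genes in each genotype and treatment (horizontal axis), as called (left) and with every list scaled to the smallest control depth (right). The H3.3 bar is above the H3.1 bar in all 8 groups of bars, while the order of ethylene and air differs between the panels.

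Among the H3.3 genes, AT5G10980 was marked most often. It carried a summit inside in 10 of 10 lists, which 6.24% of all protein-coding genes did, and in 8 lists at the common control depth. Its strongest peaks were those of H3K9Ac in Col-0. With ethylene the peak ran from chr5:3472309-3473447, with a fold enrichment of 3.88 (the authors' ratio of coverage to local background), a −log10 P of 33.4 and a pileup of 115.55 scaled fragments (95% Poisson interval 103 to 129, counting error only), and it stood at percentile 97.1 of its list by −log10 P. In air it ran from chr5:3472732-3473443, with a fold enrichment of 4.13, a −log10 P of 10.2 and a pileup of 27.94 (interval 25.0 to 31.1), at percentile 98.9. Both summits lay in the intron after the first coding exon, 351 bp behind the gene start with ethylene and 354 bp in air. Pileup and −log10 P follow the control depth and are not compared between lists. Fold enrichment also differed between whole lists. Over all H3K23Ac peaks of Col-0 its median stood at 1.99 with ethylene, against 2.53 in air. Median values of the Col-0 H3K14Ac lists were 2.00 with ethylene, against 2.52 in air, and of H3K9Ac 2.61 against 2.65. In *ein2-5* the ethylene lists had the higher medians, 2.18 against 1.85 (H3K14Ac) and 2.21 against 1.86 (H3K23Ac). Fold enrichments at a gene are thus not compared between ethylene and air.

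For H3K23Ac, the fold enrichment at AT5G10980 was 2.28 in *ein2-5* with ethylene and 2.30 in *ein2-5* in air, at percentiles 74.7 and 92.0. In Col-0 it was 1.85 with ethylene, at percentile 59.3, and in air 2.97 and 2.94 for 2 separate peaks, at percentiles 81.2 and 70.8. For H3K14Ac it was 1.97 in *ein2-5* with ethylene (percentile 41.1), 1.80 in *ein2-5* in air (55.6), 1.55 in Col-0 with ethylene (15.5) and 2.42 in Col-0 in air (33.5). The H3K14Ac peaks thus stood in the lower part of their lists or near the middle, the H3K9Ac peaks near the top. All 3 Col-0 ethylene peaks at this gene overlapped an air peak. Of the 11 peaks, the H3K14Ac summits lay 579 to 678 bp behind the start, in the second coding exon, and the H3K23Ac summits 303 to 673 bp.

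AT4G40030 and AT4G40040 each had summits inside in 7 lists, 9 peaks each. At AT4G40030, H3K9Ac gave the strongest peak, with a fold enrichment of 3.62 with ethylene (percentile 86.1) and 2.84 in air (percentile 73.3), both in a 5′ UTR exon. H3K14Ac had 2 peaks there in Col-0 with ethylene, with fold enrichments of 2.05 in the coding sequence and 1.94 in a 5′ UTR exon, and none in Col-0 in air. In *ein2-5*, H3K14Ac had no peak inside with ethylene and 1 in air, of 1.67. H3K23Ac followed with 1.79 in *ein2-5* with ethylene, 1.57 in *ein2-5* in air, 1.84 and 1.73 for 2 peaks in Col-0 with ethylene, and none in Col-0 in air. The *ein2-5* ethylene peak did not pass a q of 0.05. Only 1 of the 5 Col-0 ethylene peaks inside AT4G40030 overlapped an air peak, that of H3K9Ac. Behind the gene, AT4G40020, annotated as a myosin heavy chain-related protein, held a summit in 2 lists, with fold enrichments of 1.84 and 2.04.

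At AT4G40040 the H3K9Ac fold enrichment was 3.24 with ethylene (percentile 80.2) and 2.67 in air (percentile 65.3). H3K14Ac peaks inside had 1.93 in *ein2-5* in air and 2.16 in Col-0 with ethylene, and no such peak was called in *ein2-5* with ethylene or in Col-0 in air. H3K23Ac was the mark with the most peaks inside this gene. It had 1.91 and 1.69 for 2 peaks in *ein2-5* with ethylene, 2.05 and 1.75 for 2 in *ein2-5* in air, and 2.43 in Col-0 with ethylene, while Col-0 in air had none. The Col-0 ethylene peak of H3K23Ac stood at percentile 80.1 and remained at the common control depth. In front of the gene, a peak with its summit in AT4G40042, annotated as a signal peptidase subunit, was called in 10 of 10 lists, 348 to 431 bp before the start of AT4G40040, and 9 of these peaks remained at the common control depth. Farther out, AT4G40045 held a summit in 7 lists, 1183 to 1618 bp before the start, with fold enrichments of 1.74 to 3.05.

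**Figure D4:**
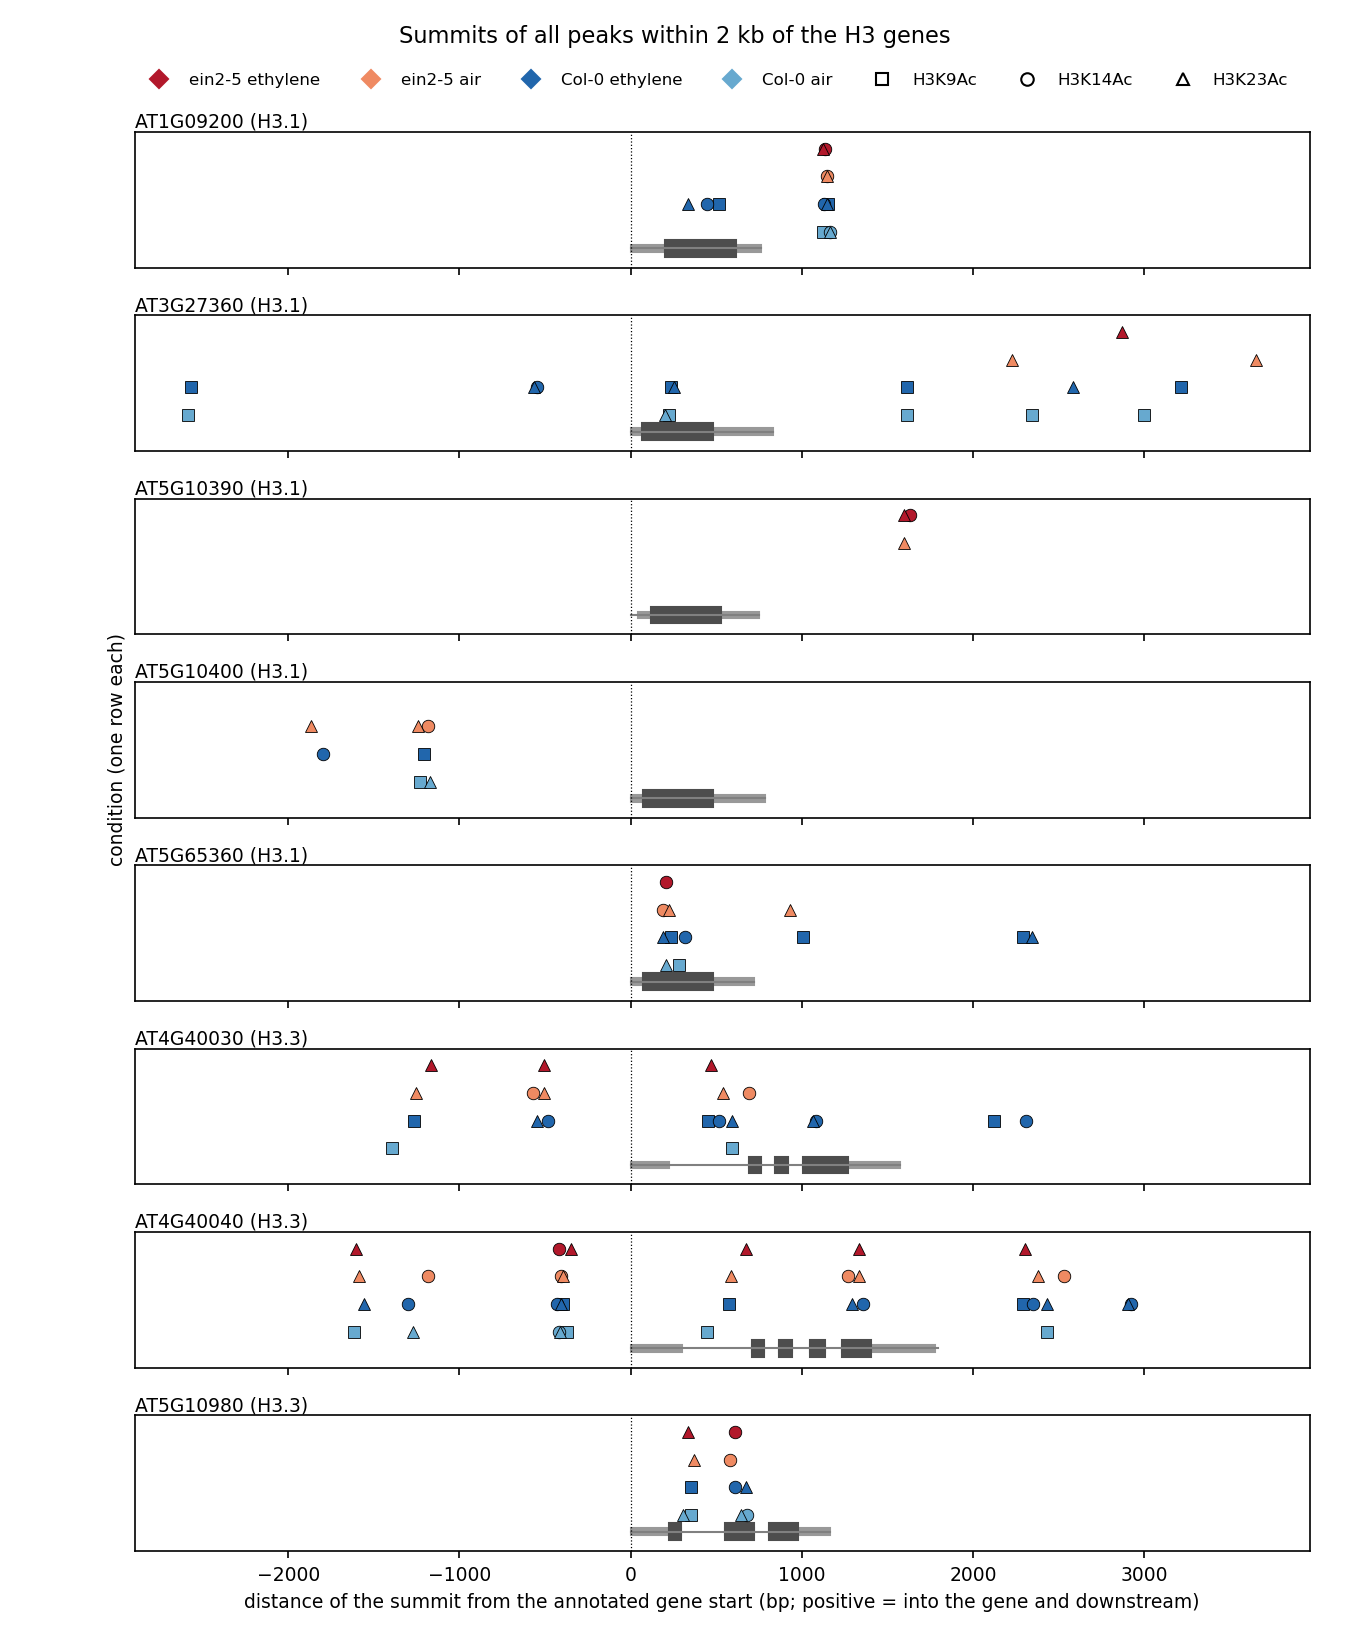
Summits of all peaks within 2 kb of each H3 gene, by distance from the annotated start (horizontal axis, bp, positive into the gene), with 1 row per condition and 1 symbol per mark; the grey drawing under each is the longest transcript, with coding exons as tall boxes. Summits inside the H3.1 genes lie 186 to 516 bp behind the start, and those inside the H3.3 genes 303 to 1356 bp.

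Among the H3.1 genes, AT5G65360 was marked most often. It had a summit inside in 8 lists, all but H3K23Ac in *ein2-5* with ethylene and H3K14Ac in Col-0 in air, and in 4 lists at the common control depth. The H3K14Ac fold enrichment was 2.08 in *ein2-5* with ethylene, 1.68 in *ein2-5* in air and 1.67 in Col-0 with ethylene. For H3K23Ac it was 2.00 in *ein2-5* in air, 1.95 in Col-0 with ethylene and 2.38 in Col-0 in air. For H3K9Ac it was 2.42 with ethylene, with a pileup of 71.67 (interval 62.0 to 82.4), and 2.76 in air, with a pileup of 15.59 (interval 13.4 to 18.0). The percentiles ran from 15.9 to 66.9, so that none of these peaks was near the top of its list. The summits lay 186 to 318 bp behind the start, all in the coding sequence. HTR11 (AT5G65350), a gene for an H3-like protein 34 bp away, held a summit in 2 lists, with fold enrichments of 1.62 and 1.65. AT5G09355 held one in 2 lists as well, with fold enrichments of 1.77 and 1.88.

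AT3G27360 had a summit inside in 4 lists, all of Col-0. For H3K9Ac the fold enrichment was 2.14 with ethylene (percentile 31.4) and 2.80 in air (percentile 47.1), and for H3K23Ac it was 1.47 with ethylene (percentile 1.27) and 2.50 in air (percentile 25.0). Neither H3K23Ac peak passed a q of 0.05. The summits lay 201 to 250 bp behind the start, in the coding sequence and within the stretch shared with SDH2-1. Around the gene, AT3G27350 held 9 summits in 5 lists, and 2 of these also lay in AT3G27355, with fold enrichments of 2.20 and 2.64. SDH2-1 held 8 summits in 5 lists, those inside AT3G27360 included, and the farthest lay 2583 bp before the start. The strongest of these peaks, H3K9Ac in Col-0 with ethylene, lay outside AT3G27360, with a fold enrichment of 3.81 (percentile 92.1). The only H3K14Ac peak within 2 kb of AT3G27360, in Col-0 with ethylene, also had its summit in SDH2-1 before the start (1.89).

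AT1G09200 had a peak within 2 kb in 10 lists, but a summit inside in only 3, those of Col-0 with ethylene. These 3 peaks had fold enrichments of 2.04 for H3K9Ac, 1.65 for H3K14Ac and 1.89 for H3K23Ac, at percentiles 17.7, 10.9 and 33.8, none overlapped an air peak, and none remained at the common control depth. The peak found in every list had its summit downstream, in AT1G09195 (annotated as a Ppx-GppA phosphatase), 1120 to 1163 bp behind the start of AT1G09200, with fold enrichments of 1.74 to 3.73 and percentiles of 14.8 to 96.8. All 10 of these peaks remained at the common control depth. The peaks called most steadily at this locus thus had their summits in the neighbouring gene.

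AT5G10390 and AT5G10400, the neighbouring H3.1 genes on chromosome 5, had no peak on the gene in any list. No summit inside in any of the 10 lists was found for 35.9% of all protein-coding genes. Near AT5G10390, 3 *ein2-5* lists had a peak with its summit in RING1 (AT5G10380, an E3 ubiquitin ligase with a RING finger), with fold enrichments of 1.87 to 2.43. Near AT5G10400, 6 lists had peaks with summits in AT5G10410, 1173 to 1867 bp before the start, with fold enrichments of 1.82 to 2.74. Peaks around these genes were thus all in their neighbours.

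Where a peak was called inside a gene, its place and size differed between the classes, but gene structure bounds the place. The H3.1 genes have no intron and span at most 833 bp, so that no intron summit or farther summit was possible in them. Their start codons lie 68 to 202 bp behind the gene start, against 221 to 709 bp in the H3.3 genes. Of the H3.1 peaks 8 lay in AT5G65360, and values for other genes of like structure were not computed. All 15 summits inside H3.1 genes were in the coding sequence, while of the 29 inside H3.3 genes 14 were in a coding exon, 10 in a 5′ UTR exon of at least 1 transcript and 5 in an intron. The peaks had a median length of 348 bp in H3.1 genes and 604 bp in H3.3 genes, and the summits a median distance of 233 bp and 593 bp from the start. The median percentile within the list was 33.8 for H3.1 and 56.1 for H3.3, with a highest value of 66.9 and 98.9. Of the H3.1 peaks 12 stood below percentile 50 and 0 above percentile 90, and of the H3.3 peaks 12 and 3. These values describe only the peaks that were called. A q of at most 0.05 was met by 13 of 15 H3.1 peaks and 26 of 29 H3.3 peaks. Counted over all protein-coding genes and lists, 80817 of the 91203 pairs with a summit inside retained one at this limit.

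Averaged over the 10 lists, peaks covered 62.3% of AT5G10980, 34.6% of AT4G40040 and 29.4% of AT4G40030. Of the H3.1 genes they covered 38.4% of AT5G65360, 22.9% of AT3G27360 and 12.6% of AT1G09200, and 0% of AT5G10390 and AT5G10400. By this measure AT5G65360 stood above both neighbouring H3.3 genes, but it spans 723 bp, against 1575 bp for AT4G40030 and 1797 bp for AT4G40040. A peak of a given size covers a larger share of a shorter gene. Counted in bases the order was the reverse. Averaged over the 10 lists, peaks covered more bases of AT4G40030 and of AT4G40040 than of AT5G65360. The coverage of all genes was not computed.

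By mark, H3K9Ac summits lay inside 5 of 10 H3.1 pairs and 6 of 6 H3.3 pairs, against 46.2% of pairs of all genes. For H3K14Ac these were 4 of 20 and 8 of 12, against 27.8% of all pairs, and for H3K23Ac 6 of 20 and 10 of 12, against 32.2%. The order of the marks was the same for both classes and for all genes, with H3K14Ac last. H3K9Ac was measured in Col-0 alone, and H3K14Ac had the shortest list in each genotype and treatment but Col-0 with ethylene.

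In Col-0, 4 of 8 ethylene peaks with a summit inside an H3.1 gene overlapped an air peak of the same mark, as did 5 of 11 inside H3.3 genes, against 39.2% of 43154 such peaks in any protein-coding gene (H3K9Ac 60.3%, H3K14Ac 18.6%, H3K23Ac 35.4%). The H3.1 peaks without an air peak were the 3 of AT1G09200 and the H3K14Ac peak of AT5G65360. The H3.3 ones were 4 in AT4G40030 and 2 in AT4G40040, all of H3K14Ac or H3K23Ac. Each air peak inside a member overlapped an ethylene peak, and the share of air peaks in all genes that did so was not counted.

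The other genes of the H3 and H4 system were counted in the same way. H4 genes, whose protein pairs with both H3 classes, had a summit inside in 38 of 80 pairs (47.5%), with HIS4 (AT2G28740) and AT3G53730 in 9 lists each. Canonical H2A genes had one in 17 of 40 pairs (42.5%), H2A.X genes in 11 of 20 (55%) and H2A.Z genes in 10 of 30 (33.3%), of which all 10 were in HTA9. HTA8 and HTA11, the other H2A.Z genes, were empty in every list. The other H3 and H3-like genes, among them the centromeric HTR12 and the sperm variant MGH3, had one in 2 of 60 pairs (3.33%), both in HTR11.

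Of the genes that act on each variant, HIRA and ATRX, which are known to place H3.3, each had a summit inside in 8 of 10 lists. The 6 genes for deposition of H3.1 and for factors of replicating chromatin had one in 15 of 60 pairs (25%). MSI1 was filled in 7 lists, ATXR5, a methyltransferase for lysine 27 of H3.1, in 6, FAS1 in 2, and FAS2, ATXR6 and TSK in 0. FAS1, FAS2 and MSI1 form the chromatin assembly factor that places H3.1. The histone chaperone genes of the ASF1 family, which carry both variants, had one in 2 of 20 pairs (10%). For all protein-coding genes the share was 33.2%.

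The genes most like each class were taken as those with the smallest mean absolute difference, over the 10 lists, between the percentile of their strongest peak with a summit inside (0 where there was none) and the class mean. For H3.1 they were PP2-B1 (AT2G02230), at 5.61 percentile points, AT3G62070 at 5.63 and EMB175 (AT5G03800) at 6.02. For H3.3 they were ABCB19 (AT3G28860), an auxin transporter, at 7.67, ckl7 (AT5G44100), at 9.33, and LBD41 (AT3G02550), at 9.61. The members themselves were 8.31 to 24.1 points from the H3.1 mean and 14.7 to 24.5 points from the H3.3 mean. The named genes were picked as the nearest of all genes, so that their smaller distances follow from the choice. Distances of genes not picked in this way were not summarised, so how uniform the classes are was not tested.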

How the data were processed

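Reads were mapped by the authors to TAIR10 (Bowtie2 2.1.0), freed of duplicates (SAMtools) and pooled over replicates where a group had 2 libraries, and MACS2 2.1.0.20150603 was run at a P of 0.01, with fragments of 200 bp and IgG as control. Per the file headers the larger data set was scaled to the smaller. The deposited lists give for each peak the pileup at the summit (a coverage signal), the fold enrichment (a ratio to the local background) and the −log10 of P and q. The headers state that q was not calculated, yet the column holds values, which were used as they stand. The lists rest on 16981322 to 37674460 ChIP tags and 2438541 to 13683768 control tags. Controls were matched to lists by genotype and treatment, which the tag numbers stated in the lists cannot check. No per-sample column was left unassigned.

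Members and comparison lists were chosen with earlier results of these data known. All 8 members and the 3 genes nearest in pattern per class are named, and neighbours where a summit falls inside them. Genes, transcripts and sequence came from RefSeq's annotation of TAIR10.1, whose nuclear chromosomes are those of TAIR10. Members are described without tests, beside the share of all 27444 genes. Pileup and fold enrichment together give the background under each summit, and the Poisson −log10 P computed from these differed from the deposited one by a median of no more than 0.000843 in any list. A common control depth scales both to 2438541 tags. The other alternatives were a q of at most 0.05, a fold enrichment of at least 2, lists of equal length (3011 peaks by −log10 P), windows of 1 kb and 0 kb, any overlap of peak and gene, summits within 500 bp, and stricter overlap of ethylene and air peaks. The overlap code was tested on simulated data with 0 mismatches over 2000 genes. Pileup intervals are exact Poisson intervals at 95%, from the ChIP fragments before scaling, and cover counting error only. Peak lists cannot check the *ein2-5* mutation, and no expression was measured here. Scripts ran on Python 3.11.15 with matplotlib 3.10.9, scipy 1.17.1, pandas 2.3.3 and numpy 2.4.6.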

Additional observations from a re-analysis of the deposited data

Results flagged for a closer look

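With 1 list per mark, genotype and treatment, of which the Col-0 H3K14Ac lists are 1 library each, the counts given here differed in opposite directions between ethylene and air in the 2 genotypes as called, and the difference between the genotypes was not tested. None of these opposite directions was found at the common control depth. The number of H3K14Ac peaks with a summit inside AT4G40030 was 0 with ethylene and 1 in air in *ein2-5*, a difference of -1, and 2 with ethylene and 0 in air in Col-0, a difference of 2. At AT4G40040 the H3K14Ac peaks inside numbered 0 with ethylene and 1 in air in *ein2-5*, a difference of -1, and 1 with ethylene and 0 in air in Col-0, a difference of 1. At the common control depth each of these genes had 0 such peaks with ethylene and 0 in air in *ein2-5*, and 1 with ethylene and 0 in air in Col-0. Summed over the class, 1 H3.3 gene with ethylene and 3 in air had an H3K14Ac summit inside in *ein2-5*, a difference of -2, while 3 with ethylene and 1 in air did in Col-0, a difference of 2. Of all genes, 27% with ethylene and 29.6% in air had one in *ein2-5*, and 43.8% with ethylene and 10.6% in air did in Col-0. At the common control depth the H3.3 genes numbered 1 with ethylene and 0 in air in *ein2-5*, and 2 with ethylene and 1 in air in Col-0. For the H3.1 genes and H3K23Ac the counts were 0 with ethylene and 1 in air in *ein2-5*, a difference of -1, and 3 with ethylene and 2 in air in Col-0, a difference of 1. The shares of all genes for this mark were 35.4% with ethylene and 37.2% in air in *ein2-5*, and 39.3% with ethylene and 17% in air in Col-0. At the common control depth the H3.1 counts were 0 with ethylene and 0 in air in *ein2-5*, and 0 with ethylene and 2 in air in Col-0. In each genotype the treatment with the larger count as called was the one with the deeper IgG control.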

How the results depend on the processing

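Of 72 values of the 12 counts under other settings, 46 stayed within 1.5 times the value reported and 26 did not; all 12 with a q of at most 0.05 stayed. In lists of equal length, a peak lay within 2 kb in 14 of 50 H3.1 and 16 of 30 H3.3 pairs, and the share of all genes for this was not computed. The H3.1 pairs with a summit inside then fell to 0 of 10 in *ein2-5* with ethylene and 0 of 10 in *ein2-5* in air. In Col-0 they fell to 0 of 15 with ethylene and 1 of 15 in air. The H3.3 pairs fell to 1 of 6 in *ein2-5* with ethylene and 1 of 6 in *ein2-5* in air. In Col-0 the H3.3 pairs fell to 3 of 9 with ethylene and 4 of 9 in air. The order of ethylene and air in Col-0 for H3.3 thus also turned round in lists of equal length. For all genes the shares were 10.8% in *ein2-5* with ethylene, 10.6% in *ein2-5* in air and 10.7% in Col-0 with either treatment. With a fold enrichment of at least 2, they were 0 for H3.1 in *ein2-5* in air and 3 in Col-0 with ethylene, and 1 for H3.3 in *ein2-5* with ethylene and 2 in *ein2-5* in air. At the common control depth they were 0 for H3.1 in *ein2-5* in air and 2 in Col-0 with ethylene, and 1 for H3.3 in *ein2-5* in air. Counting summits within 500 bp gave 3 H3.1 pairs in *ein2-5* with ethylene, 4 in *ein2-5* in air and 7 in Col-0 in air, and a window of 0 kb gave 15 H3.1 pairs. Shares of all genes were not computed for summits within 500 bp or for the window of 0 kb. The Col-0 ethylene peaks that overlap an air peak numbered 0 of 0 for H3.1 and 2 of 3 for H3.3 in lists of equal length, 2 of 3 and 3 of 6 with a fold enrichment of at least 2, 2 of 2 for H3.1 at the common control depth, and 2 of 11 for H3.3 with an overlap of 50% of the peak. The H3.1 share of pairs with a summit inside was below the H3.3 share under each filter on peaks, at 26% and 73.3% with a q of at most 0.05 (29.4% for all genes), 16% and 46.7% with a fold enrichment of at least 2 (22.3%), 14% and 53.3% at the common control depth (22.9%), and 2% and 30% in lists of equal length (10.7%). Why the counts moved was not tested beyond the construction of each setting, which leaves fewer peaks or admits more. No paired analysis was possible because each list is 1 library or 2 pooled ones. The control depth limits what could be called, and no list has replicate error.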
